A study of Mus musculus with 16 samples.

Results

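The forkhead transcription factor family was examined in mouse induced pluripotent stem cells (iPSCs). Members were taken as genes of chromosomes 1 to 19 whose symbol is Fox followed by a letter from a to s and a number, without Foxd1 and Foxa2. This gave 39 genes, the same in the table of 43984 genes with histone marks and in the table of 55471 genes with CpG methylation, and all are annotated as protein coding. The 3 forkhead genes of chromosome X were left out by the same rule. Of the 39 genes, 11 were classed from textbook knowledge as broadly expressed (Foxj2, Foxj3, Foxk1, Foxk2, Foxm1, Foxn2, Foxn3, Foxo1, Foxo3, Foxp1 and Foxp4), 2 as genes of pluripotent cells or the early embryo (Foxd3 and Foxh1) and 26 as lineage-restricted.

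The study asked whether iPSCs keep marks of the cell they came from. PTC iPSC lines PTC11 and PTC12 came from kidney proximal tubule cells, and TTF iPSC lines TTF1 and TTF4 from tail tip fibroblasts. The cells were taken from littermates heterozygous for 4 transgenes, named SLC34a1-GCE and tdTomato on the one side and rtTAROSA (neo-in) and OKMS-250 on the other. In these mice doxycycline induces Oct4, Klf4, c-Myc and Sox2 once Cre has removed a neo cassette. Cre came from the Slc34a1 locus after tamoxifen in PTC, which were sorted for tdTomato and GFP, and from an introduced episomal plasmid in TTF, so that the way of Cre delivery goes with the origin. Each line is 1 clone that no longer needed doxycycline, was of low passage and was maintained on mouse embryonic fibroblast feeders. H3K4me3, H3K36me3 and CpG methylation (mCpG) are given here by 1 library per line, so that a line is the replicate and n = 2 per origin. The methods state that the ChIP was done in duplicate, and the second library of each line was not analysed here. The tables hold no read counts or coverage, so that the depth behind a value is unknown. The methods call the methylation replicates of an origin independent animals. For the histone marks neither labels nor methods say so. The p-values rest on a spread between lines that limma shares across genes, more than on the spread at each gene.

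Forkhead proteins bind DNA through a winged-helix domain of the same fold. Some members open or mark chromatin in a lineage, such as Foxa1 and Foxa3 in endoderm, while others act in most cells, such as the FoxO factors under insulin signalling and Foxm1 in the cell cycle. In pluripotent cells Foxd3 is a factor of the undifferentiated state and Foxh1 binds SMAD proteins in Nodal signalling. H3K4me3 marks active and poised gene starts, H3K36me3 marks transcribed gene bodies, and methylation of a CpG-rich gene start goes with stable silencing.

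Most forkhead genes have many CpGs around their start. Within 1000 bp of the start listed in the methylation table, the 39 genes held a median of 133 CpGs (range 16 to 215), against 63 over 20780 protein-coding genes of the same chromosomes. The median was 150 in broadly expressed and 116 in lineage-restricted members. Below are the 250 bases before the start of 5 genes, read from RefSeq's GRCm38 (mm10) in the direction of the gene, with each CpG in capitals. Foxo3 is shown as the least methylated member. Foxd3 has a CpG-rich start that differed in 1 line, and Foxr1 has the widest range of methylation between lines. Foxj3 and Foxq1 are shown because another annotated or listed start of theirs has many more CpGs. For Foxj3 the sequence before the RefSeq start, 2657 bp downstream of the listed start, follows that before the listed start.
Foxo3, chr10:42276756-42277005, minus strand: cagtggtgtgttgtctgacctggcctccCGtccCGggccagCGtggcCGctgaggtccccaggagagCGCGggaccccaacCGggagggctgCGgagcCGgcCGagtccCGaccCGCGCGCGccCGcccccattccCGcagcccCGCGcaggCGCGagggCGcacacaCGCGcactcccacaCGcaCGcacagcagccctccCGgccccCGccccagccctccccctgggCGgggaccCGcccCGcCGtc
Foxd3, chr4:99656049-99656298, plus strand: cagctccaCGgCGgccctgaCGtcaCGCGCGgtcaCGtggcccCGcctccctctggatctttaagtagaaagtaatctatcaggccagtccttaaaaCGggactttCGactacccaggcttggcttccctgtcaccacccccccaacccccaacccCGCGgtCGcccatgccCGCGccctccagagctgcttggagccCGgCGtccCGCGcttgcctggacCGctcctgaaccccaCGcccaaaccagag
Foxr1, chr9:44441137-44441386, minus strand: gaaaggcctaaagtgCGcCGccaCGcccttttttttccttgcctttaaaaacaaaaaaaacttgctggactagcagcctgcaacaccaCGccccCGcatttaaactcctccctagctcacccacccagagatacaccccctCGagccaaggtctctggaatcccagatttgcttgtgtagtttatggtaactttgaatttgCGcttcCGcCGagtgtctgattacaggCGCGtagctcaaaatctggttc
Foxj3 before the listed start, chr4:119536754-119537003, plus strand: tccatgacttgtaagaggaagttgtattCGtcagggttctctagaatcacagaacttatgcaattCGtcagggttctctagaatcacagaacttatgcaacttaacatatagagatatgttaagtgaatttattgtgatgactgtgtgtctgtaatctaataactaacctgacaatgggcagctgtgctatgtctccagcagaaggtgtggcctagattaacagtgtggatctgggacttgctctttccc
Foxj3 before the RefSeq start, chr4:119539411-119539660, plus strand: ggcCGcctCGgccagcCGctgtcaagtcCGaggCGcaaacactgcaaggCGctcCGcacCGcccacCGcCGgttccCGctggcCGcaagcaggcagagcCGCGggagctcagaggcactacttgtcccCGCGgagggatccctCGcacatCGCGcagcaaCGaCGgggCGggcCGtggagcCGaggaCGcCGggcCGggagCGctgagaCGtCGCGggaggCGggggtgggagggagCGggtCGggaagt
Foxq1 before the start listed for methylation, chr13:31555884-31556133, plus strand: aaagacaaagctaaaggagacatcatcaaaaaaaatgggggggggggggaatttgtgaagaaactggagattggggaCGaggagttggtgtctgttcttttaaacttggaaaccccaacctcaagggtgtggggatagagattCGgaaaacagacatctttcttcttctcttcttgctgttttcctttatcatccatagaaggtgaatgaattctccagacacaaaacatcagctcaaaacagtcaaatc
These 250 bases hold 32 CpGs at Foxo3, 21 at Foxd3 and 11 at Foxr1. At Foxj3 they hold 2 before the listed start and 34 before the RefSeq start. At Foxq1 they hold 2. None of the 6 stretches overlaps an annotated untranslated region, and the stretch before the RefSeq start of Foxj3 overlaps 1 exon of another transcript. RefSeq promoters, 250 bases before to 50 after a start, were given for 24 of the 39 genes. A forkhead motif, TGTTTAC on either strand (GTAAACA on the other), was found in a promoter of 1 of the 24 genes, Foxa1 (4.17%). Over all genes with a RefSeq promoter given, 1062 of 25748 had it in a promoter (4.12%).

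H3K4me3 was present at the start of most forkhead genes in every line. Of 39 members, 29 had a value in all 4 lines (74.4%), compared with 31.2% of all genes listed and 53.3% of protein-coding genes. By class these were 9 of 11 broadly expressed, both early embryo and 18 of 26 lineage-restricted members. Hox genes, set beside as another family of developmental regulators, had H3K4me3 in all 4 lines at 22 of 39 genes, and Sox genes at 14 of 18. The differences between these shares were not tested. Values are RPKM after subtraction of the input, averaged over the peaks at the start, and genes lacking a peak in a line are left blank there.

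**Figure D1:**
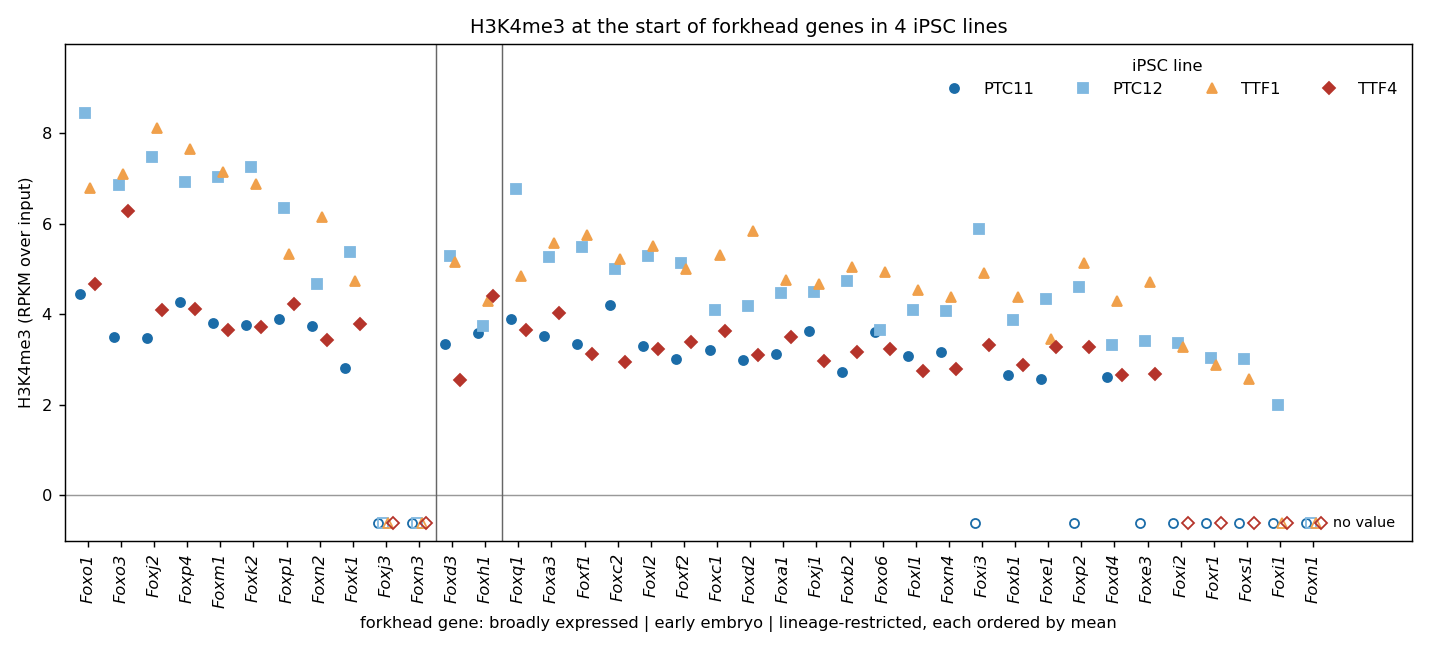
H3K4me3 in RPKM over input (y axis) at forkhead genes (x axis, by class and then by mean over lines), with 1 point per iPSC line. Open symbols below 0 mark lines with no value, and PTC12 and TTF1 lie above PTC11 and TTF4 at most genes, above all at broadly expressed members.

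Among broadly expressed members Foxo1 and Foxo3 had the highest mean H3K4me3, 6.10 and 5.94 RPKM. Foxo1, a target of insulin signalling through Akt, had 4.46 RPKM (PTC11), 8.46 (PTC12), 6.80 (TTF1) and 4.67 (TTF4). Foxo3, of the same group, had 3.51, 6.86, 7.10 and 6.28 RPKM in the same order of lines. At Foxo1 the lines of both origins overlapped, with PTC11 lowest and PTC12 highest, while at Foxo3 TTF4 stood with PTC12 and TTF1 and PTC11 alone was low.

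Foxj2, an activator expressed from early development, had 3.48 RPKM (PTC11), 7.47 (PTC12), 8.11 (TTF1) and 4.11 (TTF4). Its values are also listed for the overlapping locus AC163108.1, so that the peak cannot be given to Foxj2 alone. Foxm1, which drives genes of G2 and mitosis, had 3.81, 7.03, 7.15 and 3.66 RPKM, values that the neighbouring gene Rhno1 shares. Foxk1 and Foxk2, repressors that bind forkhead sites in many tissues, differed in level: Foxk2 had 3.77, 7.25, 6.88 and 3.71 RPKM and Foxk1 had 2.81, 5.37, 4.74 and 3.78. The repressors Foxp1 (3.90, 6.36, 5.33 and 4.23 RPKM) and Foxp4 (4.27, 6.92, 7.67 and 4.12) showed the same order, with PTC11 and TTF4 low and PTC12 and TTF1 high. Foxn2 had 3.74, 4.67, 6.16 and 3.42 RPKM.

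Lines of the same origin differed at the broad members. Over members with a value in all 4 lines, H3K4me3 in PTC12 was a median of 1.90 times that in PTC11 for broadly expressed members and 1.42 times for lineage-restricted members, compared with 1.44 times over all genes. In TTF1 it was 1.80 times that in TTF4 for broadly expressed and 1.56 times for lineage-restricted members, compared with 1.55 times over all genes. With 1 library per line these ratios have no replicate check.

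Foxj3 and Foxn3, also classed as broadly expressed, had no H3K4me3 value in any line. At both, the start in the histone table lies in CpG-poor sequence. Foxj3's listed start has 16 CpGs within 1000 bp, whereas the start of its principal transcript, 2657 bp downstream, has 171. For Foxn3 the histone table uses a start with 23 CpGs and the methylation table a start 113471 bp away with 91. The histone start of Foxn3 lies 37 bp from that of its principal transcript, so that H3K4me3 was looked for at the principal start. By the methods, H3K4me3 was averaged over a window around the start, and this window also reaches the principal start of Foxj3. Over protein-coding genes, 8.22% had a listed start more than 1000 bp from the start of the principal transcript. The start of Foxn3 used for methylation lies outside the window averaged for H3K4me3, so that absence of H3K4me3 is not shown there.

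Comparing classes, median H3K4me3 with absent values set to 0 was 3.74 RPKM (PTC11), 6.86 (PTC12), 6.80 (TTF1) and 3.78 (TTF4) for broadly expressed members. For lineage-restricted members it was 3.00, 4.15, 4.74 and 3.04 RPKM. The difference of the medians over line means was 0.48 on the log2(RPKM + 1) scale, and by line it was 0.25, 0.61, 0.44 and 0.24, above 0 in 4 of 4 lines. Members of a class are not replicates of a condition, so that no test was made of this difference. The means of Foxd3 (4.08 RPKM) and Foxh1 (4.01 RPKM) lay within the range of the restricted members with a value in every line.

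At Foxd3 the values were 3.34 RPKM (PTC11), 5.29 (PTC12), 5.15 (TTF1) and 2.55 (TTF4), with TTF4 the lowest line. TTF4 was the lowest line at 14 of 29 members, compared with 47.0% of all genes. Foxh1 had 3.58, 3.74, 4.30 and 4.42 RPKM, and was the 1 member at which TTF4 was the highest line, as it was at 2.09% of all genes. It was also the 1 member at which each TTF line exceeded each PTC line, against 5.04% of all genes. Both TTF lines lay below both PTC lines at 1 member, against 3.17% of all genes.

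Of the lineage-restricted members with H3K4me3 in every line, Foxq1 (3.91, 6.78, 4.86 and 3.65 RPKM) and Foxa3 (3.53, 5.27, 5.58 and 4.04), a liver and endoderm factor, had the highest means, 4.80 and 4.60 RPKM. The lowest mean was that of Foxd4, 3.22 RPKM. Foxc1, Foxc2 and Foxd2, which act in kidney and other mesenchyme, had means of 4.07, 4.34 and 4.04 RPKM, and at all 3 the origins overlapped.

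Members lacking H3K4me3 in some lines were split within an origin. Foxe3, Foxi3 and Foxp2 had a value in every line but PTC11, a pattern of 2.71% of all genes. Foxi2, Foxr1 and Foxs1 had a value in PTC12 and TTF1 alone, a pattern of 4.51% of all genes. Foxi1, which specifies intercalated cells of the kidney and cells of the inner ear, had a value of 2.00 RPKM in PTC12 alone. Foxn1, which specifies thymic epithelium and hair follicles, had none in any line, as had 50.5% of all genes. In each of these 8 genes, lines of the same origin differed or no line had a value.

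CpG methylation at the listed start was low at most forkhead genes. The fraction of methylated CpGs was under 0.2 in all 4 lines at 23 of 39 members, compared with 12.4% of all genes and 24.6% of protein-coding genes with a value in every line. It also held for 20 of 39 Hox genes and 9 of 18 Sox genes. By class this held for 10 of 11 broadly expressed, neither early embryo and 13 of 26 lineage-restricted members. The median fraction of broadly expressed members was 0.0277 (PTC11), 0.0275 (PTC12), 0.0293 (TTF1) and 0.0389 (TTF4), and that of lineage-restricted members 0.0858, 0.118, 0.102 and 0.136. Over all genes the median was 0.385, 0.539, 0.374 and 0.770. The broad minus restricted difference of medians over line means was -0.0931, and was below 0 in 4 of 4 lines. It has no test, for the reason given for H3K4me3.

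**Figure D2:**
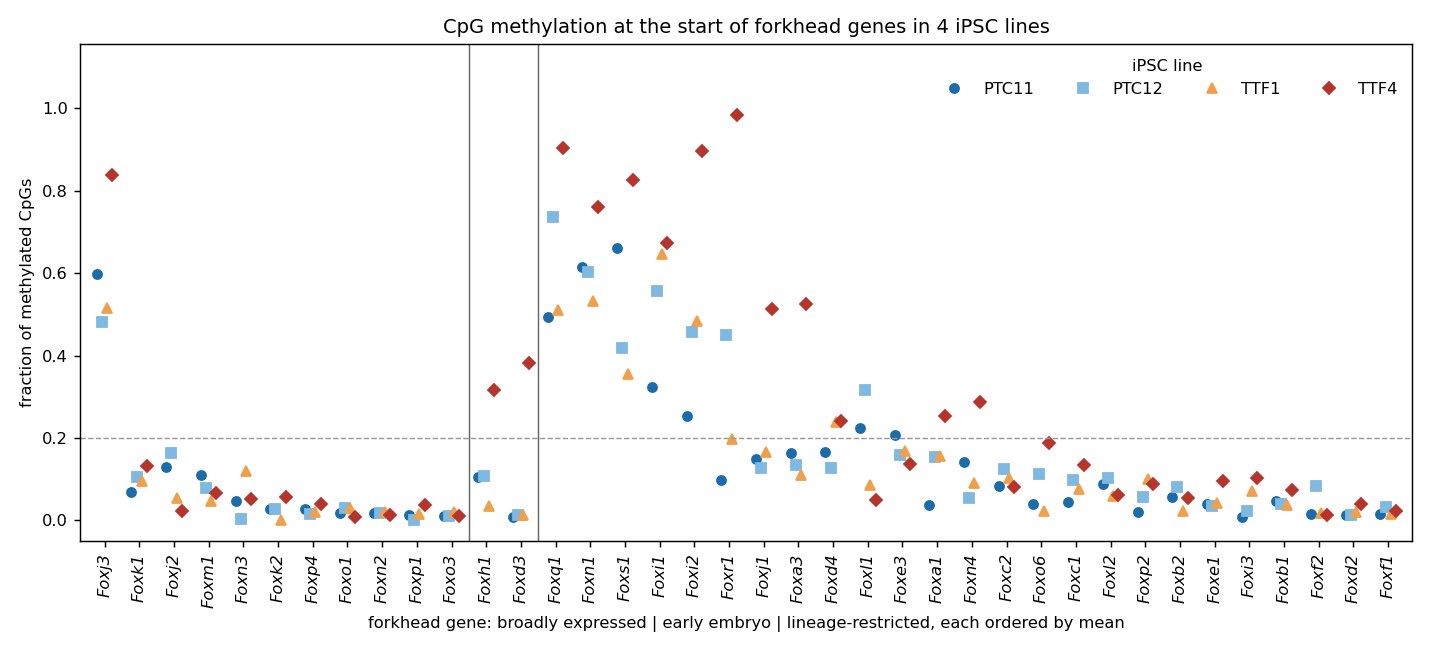
Fraction of methylated CpGs (y axis) within 1000 bp of the listed start of forkhead genes (x axis, by class and then by mean over lines), with 1 point per iPSC line and a dashed line at 0.2. All broadly expressed members but Foxj3 lie under 0.2, and TTF4 is the highest line at the 6 members with a mean over 0.5 but the lowest at Foxl1 and Foxe3, which cross 0.2.

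Foxo3 was the least methylated member, with fractions of 0.0117 (PTC11), 0.00972 (PTC12), 0.0196 (TTF1) and 0.0103 (TTF4). Foxo1 had 0.0173, 0.0296, 0.0293 and 0.00794, Foxn2 0.0182, 0.0180, 0.0213 and 0.0127, and Foxp1 0.0121, 0, 0.0148 and 0.0362. The origins overlapped at Foxo3, Foxo1 and Foxn2, and at Foxp1 each TTF line exceeded each PTC line, all at fractions under 0.05. The start of the principal transcript of Foxp1 lies 256206 bp from its listed start, with 23 CpGs within 1000 bp against 150. Its fraction was not measured here. Foxk2 (0.0271, 0.0275, 0 and 0.0574) and Foxp4 (0.0277, 0.0145, 0.0205 and 0.0389) were as low. Foxk1 had 0.0684, 0.105, 0.0956 and 0.132, and Foxm1 0.109, 0.0790, 0.0465 and 0.0673. At Foxj2 the fractions were 0.129 and 0.164 in the PTC lines and 0.0551 and 0.0222 in TTF1 and TTF4, with both TTF lines below both PTC lines. Foxn3, measured at its CpG-richer start, had 0.0476, 0.00341, 0.120 and 0.0523.

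Foxj3 was the exception among broadly expressed members, with 0.597 (PTC11), 0.482 (PTC12), 0.517 (TTF1) and 0.838 (TTF4). The sequence before this listed start holds few CpGs, as printed above, and the CpG-rich stretch before the RefSeq start lies beyond the window that was averaged. The gene body of Foxj3 carried H3K36me3 in every line (1.96, 4.61, 1.54 and 6.08 RPKM).

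At Foxd3 a single line differed. Its fraction was 0.00880 in PTC11, 0.0119 in PTC12 and 0.0122 in TTF1, against 0.382 in TTF4. Of 11 members under 0.05 in the other 3 lines, Foxd3 was the 1 with a fraction of 0.3 or more in TTF4, and the other 10 reached at most 0.0944. Among all genes under 0.05 in those lines, 65 of 2463 (2.64%) reached 0.3 in TTF4. H3K4me3 at Foxd3 was lowest in the same line. TTF1 stayed with the PTC lines, so that the gap lies within the TTF origin. Foxh1, the other early member, had 0.106, 0.108, 0.0356 and 0.315, again with TTF4 highest, although its H3K4me3 was highest in TTF4 as well.

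TTF4 had the highest fraction at 24 of 39 members, compared with 75.4% of all genes and 75.6% of protein-coding genes, and was highest by at least 0.1 at 11 members, compared with 52.3% of all genes and 48.8% of protein-coding genes. These 11 were Foxd3, Foxh1, Foxj3, Foxa3, Foxi2, Foxj1, Foxn1, Foxn4, Foxq1, Foxr1 and Foxs1. Over all genes, too, the mean fraction was 0.649 in TTF4 against 0.372 in PTC11, 0.482 in PTC12 and 0.379 in TTF1, and the part of this shift in the forkhead values was not tested. TTF4 was the lowest line at 8 members, compared with 2.99% of all genes and 4.05% of protein-coding genes, among them Foxl1, Foxj2, Foxn2 and Foxo1. It was the lowest line at 3 of 39 Hox and 4 of 18 Sox genes, and the highest at 21 and 10 of them.

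Of the restricted members, 5 had a mean fraction over 0.5, compared with 56.6% of all genes and 28.6% of protein-coding genes. Foxq1 had 0.494 (PTC11), 0.736 (PTC12), 0.511 (TTF1) and 0.904 (TTF4). Foxn1 had 0.615, 0.602, 0.533 and 0.760, and Foxs1 0.660, 0.419, 0.356 and 0.826. Foxi1 and Foxi2 had lower fractions in PTC11 (0.323 and 0.254) than in PTC12 (0.556 and 0.458), TTF1 (0.646 and 0.484) and TTF4 (0.672 and 0.896), and at both genes the TTF lines lay above the PTC lines. Foxr1 ranged most widely, from 0.0976 in PTC11 and 0.199 in TTF1 to 0.449 in PTC12 and 0.983 in TTF4. Of these 6 genes, all but Foxq1 had H3K4me3 in at most 2 lines.

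Members with a high mean fraction had few CpGs. The 8 members with under 70 CpGs around the listed start (16 to 63) had mean fractions from 0.141 (Foxh1) to 0.661 (Foxq1), and none was under 0.2 in all 4 lines. The 31 others (81 to 215 CpGs) had mean fractions from 0.0128 (Foxo3) to 0.239 (Foxj1), and 23 were under 0.2 in all 4 lines. Spearman's rho between CpG count and mean fraction was -0.78 across the 39 members and -0.64 across 48866 genes of chromosomes 1 to 19, where genes share libraries and are not independent replicates. The count at the start in the histone table went with mean H3K4me3 at a rho of 0.66 across the 39 members, with absent values set to 0.

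**Figure D3:**
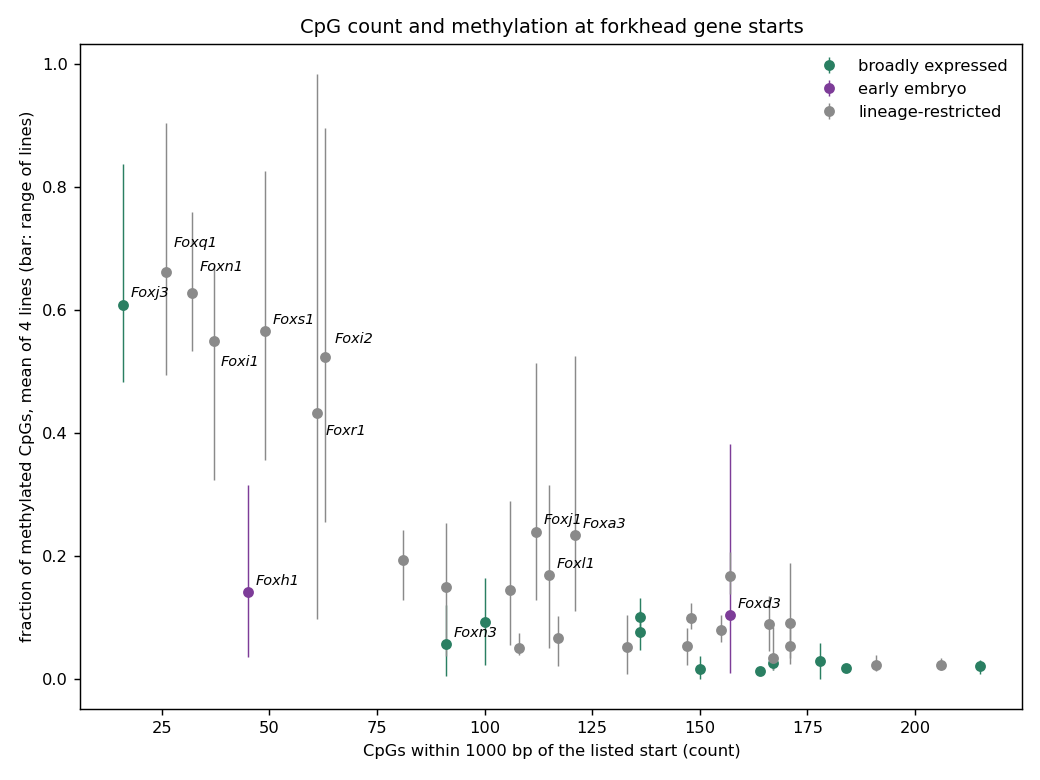
Mean fraction of methylated CpGs over 4 lines (y axis, bars from the lowest to the highest line) against the count of CpGs within 1000 bp of the listed start (x axis), with 1 point per forkhead gene coloured by class. Members under 70 CpGs have means from 0.141 to 0.661, and Foxd3, with 157 CpGs, has a long bar that comes from TTF4.

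Foxq1 combined a methylated start with H3K4me3 in every line, but the tables used different starts for it. The start of Foxq1 in the histone table lies 2036 bp downstream of that in the methylation table, with 147 CpGs within 1000 bp against 26. By the methods, the window averaged for H3K4me3 reaches upstream into part of the window for methylation. The fraction around the downstream start was not measured here. Apart from Foxn3 and Foxq1, the listed starts of the tables lay at most 795 bp apart, at Foxa1.

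Linked members differed in methylation at the starts measured. On chromosome 13, Foxq1, Foxf2 and Foxc1 follow each other, with starts 69.7 and 180.8 kb apart. Foxf2, a regulator of mesenchyme in palate and gut, had fractions of 0.0164, 0.0839, 0.0190 and 0.0132 and H3K4me3 of 3.01, 5.14, 5.01 and 3.39 RPKM. Foxc1 had fractions of 0.0441, 0.0983, 0.0760 and 0.134 and H3K4me3 of 3.21, 4.10, 5.32 and 3.64 RPKM. Both were thus low in methylation where Foxq1 was high, at the start used for it.

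On chromosome 8, Foxf1, Foxc2 and Foxl1 have starts 31.8 and 11.8 kb apart. Foxf1, needed for lung and gut mesenchyme, had fractions of 0.0144, 0.0332, 0.0165 and 0.0216, and Foxc2, a regulator of lymphatic and other vessels, 0.0843, 0.123, 0.103 and 0.0808. Foxl1, a factor of gut mesenchyme, had 0.224 in PTC11 and 0.316 in PTC12 against 0.0866 in TTF1 and 0.0497 in TTF4. Both PTC lines lay above both TTF lines at Foxl1, while at Foxf1 and Foxc2 the origins overlapped. On chromosome 4 the starts of Foxd2 and Foxe3, a lens regulator, lie 17.1 kb apart, with fractions of 0.0120, 0.0139, 0.0211 and 0.0388 at Foxd2 and 0.206, 0.159, 0.167 and 0.137 at Foxe3. H3K4me3 at Foxl1 (3.08, 4.09, 4.53 and 2.74 RPKM) overlapped between origins as well, and its histone values are also listed for an overlapping locus named FOXL1.

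H3K36me3 was found over every forkhead gene in PTC11, PTC12 and TTF1. Of the 39 members, 36 had a value in all 4 lines, compared with 38.7% of all genes and 63.5% of protein-coding genes, and with 37 of 39 Hox and 17 of 18 Sox genes. With values of at least 1 RPKM required, the count of members fell to 31. Foxh1, Foxi1 and Foxs1 lacked a value in TTF4 alone, a pattern of 4.81% of all genes. The 3 members without H3K4me3 in any line, Foxj3, Foxn1 and Foxn3, had H3K36me3 in every line. All 6 proximal tubule and all 6 fibroblast markers had H3K36me3 in PTC11 and TTF1 too. Its presence alone thus does not set forkhead genes apart from them.

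**Figure D4:**
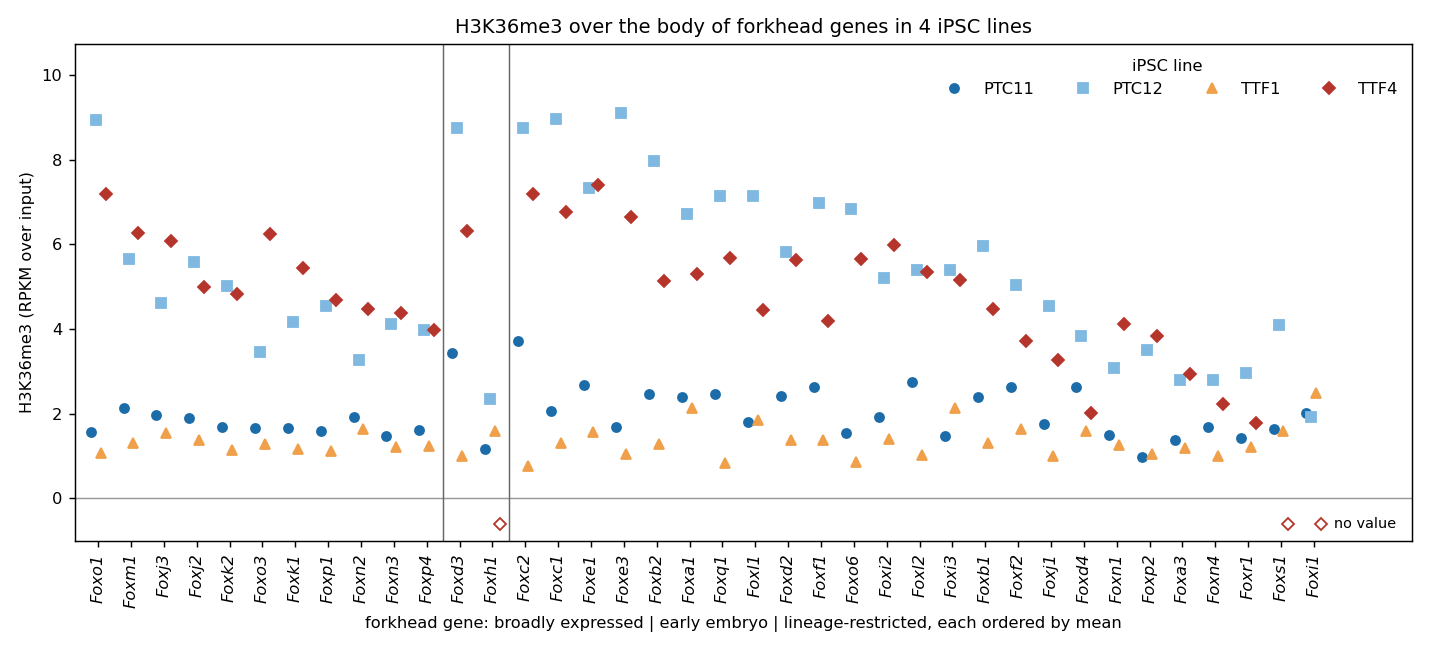
H3K36me3 in RPKM over input (y axis) over forkhead genes (x axis, by class and then by mean over lines), with 1 point per iPSC line and open symbols for lines with no value. PTC12 and TTF4 lie above PTC11 and TTF1 at nearly every gene, and the broadly expressed members do not lie above the others.

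Lines again differed more than origins. With absent values set to 0, the median over broadly expressed members was 1.67 RPKM (PTC11), 4.55 (PTC12), 1.23 (TTF1) and 4.99 (TTF4). Over lineage-restricted members it was 1.96, 5.40, 1.30 and 4.60, or 4.94 in TTF4 with absent values left out. Over all genes with a value the medians were 1.60, 3.88, 1.18 and 4.01 RPKM. The broad minus restricted difference over line means was -0.14 on the log2(RPKM + 1) scale. By line it was -0.15, -0.21, -0.05 and 0.10 with absent values set to 0, so that its sign differed between lines. Most of the 0.10 in TTF4 comes from the absent values, since the medians were 4.99 and 4.94 RPKM without them. Without PTC12 the difference over line means was 0.01.

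Among members with a value in every line, the highest means were those of Foxc2, Foxd3, Foxc1 and Foxe1, genes that span 2.725, 2.324, 5.844 and 2.804 kb. Foxc2 had 3.72 RPKM (PTC11), 8.74 (PTC12), 0.756 (TTF1) and 7.19 (TTF4), with a mean of 5.10. Foxd3 had 3.43, 8.76, 1.01 and 6.32 RPKM, values also listed for the overlapping locus BX005053.1, and Foxc1 had 2.07, 8.97, 1.31 and 6.77. Foxo1 was the highest broad member, with 1.56, 8.94, 1.07 and 7.20 RPKM. These 4 genes were low in PTC11 and TTF1 and high in PTC12 and TTF4, and the origins overlapped. Foxr1 (1.43, 2.95, 1.22 and 1.79) and Foxn4 (1.69, 2.79, 0.998 and 2.22), which acts in the retina, had the lowest means among members with a value in every line, 1.85 and 1.92 RPKM. Gene span, from 0.867 kb at Foxe3 to 597.4 kb at Foxp1, went with mean H3K36me3 at a Spearman's rho of -0.50 across 36 members and -0.20 across 17039 genes. Values are per kilobase of peak, and reads at the start of a short gene fall within its body, which these tables do not separate.

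Other broad members ranged less. Foxm1 had 2.13, 5.65, 1.32 and 6.26 RPKM, Foxj2 1.89, 5.58, 1.38 and 4.99, and Foxk2 1.68, 5.02, 1.14 and 4.83. Foxo3 had 1.66, 3.46, 1.28 and 6.25 RPKM, with TTF4 the highest line. Foxp4 was the lowest broad member by mean, 2.70 RPKM. The mean H3K36me3 of Foxn3, 2.79 RPKM, and of Foxj3, 3.55 RPKM, lay within the range of the broad members that had H3K4me3.

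The comparison of TTF with PTC lines called no forkhead gene. For H3K4me3, limma on log2(RPKM + 1) with Benjamini-Hochberg adjustment over all genes called 0 of 29 members at an adjusted p under 0.05, compared with 0.481% of 13709 genes. None had an unadjusted p under 0.05. The standard errors follow the spread shared across genes. Foxh1, with 3.58 and 3.74 RPKM in the PTC lines and 4.30 and 4.42 in the TTF lines, had a standard error of 0.38. The differences of TTF minus PTC at the members reported by name ran from -0.24 (Foxq1, standard error 0.45) to 0.37 (Foxo3, standard error 0.56), and the median over the 29 members was 0.04, which was also the median over all genes. The 95% intervals of the members reached from -1.23 to 1.45, so that a change of 1 log2 unit is within the interval of some members and outside that of others.

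For H3K36me3, 0 of 36 members were called, compared with 0.112% of 17039 genes, and none had an unadjusted p under 0.05 in limma. The differences ran from -0.84 (Foxc2, standard error 1.38) to 0.24 (Foxo3, standard error 1.08), with a median of -0.27 against -0.14 over all genes. Intervals reached from -3.54 to 2.47 on the log2 scale. The 1 member whose origins did not overlap was Foxd4, with 2.62 and 3.83 RPKM in the PTC lines and 1.59 and 2.02 in TTF1 and TTF4. Both TTF lines lay below both PTC lines at 3.05% of all genes and above them at 0.452%. After quantile normalization, Foxd3 (-0.76, standard error 0.30) and Foxf1 (-0.53, standard error 0.21) passed an unadjusted threshold of 0.05, with a limma adjusted p = 0.998 for both.

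For methylation the mean of each line over all genes was first subtracted. At members near 0 in every line the difference then comes mostly from the line means, as at Foxo3 (-0.0828, standard error 0.126). For such members the fit cannot show whether the origins differ. In limma 0 of 39 members were called, compared with 0.00395% of 50657 genes, and 1 had an unadjusted p under 0.05. This was Foxl1, with a difference of -0.289 (standard error 0.133, 95% interval from -0.555 to -0.0219, unadjusted p = 0.0344, adjusted p = 1.00 from limma). In a fit without TTF1, which takes TTF4 to vary as the PTC lines do, the Foxl1 difference was -0.442. Part of this difference comes from the subtracted line means, 0.649 in TTF4 against 0.372 in PTC11 and 0.482 in PTC12. As deposited, Foxl1 had 0.0497 in TTF4 against 0.224 in PTC11 and 0.316 in PTC12. Without TTF4 the Foxl1 difference after subtraction was -0.135. Without the subtraction, Foxl1 had a difference of -0.201 (unadjusted p = 0.0794 from limma) and Foxd3 one of 0.187 (unadjusted p = 0.00649, adjusted p = 1 from limma).

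As deposited, each TTF line exceeded each PTC line at 12 members, compared with 20.5% of all genes, and lay below each at 5, compared with 3.36%. The lower side held 5 of 39 Hox genes and 3 of 18 Sox genes. The 5 were Foxl1, Foxj2, Foxm1, Foxl2 and Foxb2. After subtraction of the line means the counts were 2 above and 2 below, against 15.0% and 12.8% of all genes, so that both counts changed with the subtraction. Foxd4 had fractions of 0.165 and 0.128 in the PTC lines and 0.238 and 0.242 in the TTF lines as deposited, and was the 1 member with origins apart in more than 1 assay. Its difference after the subtraction was 0.00671 (standard error 0.134).

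**Figure D5:**
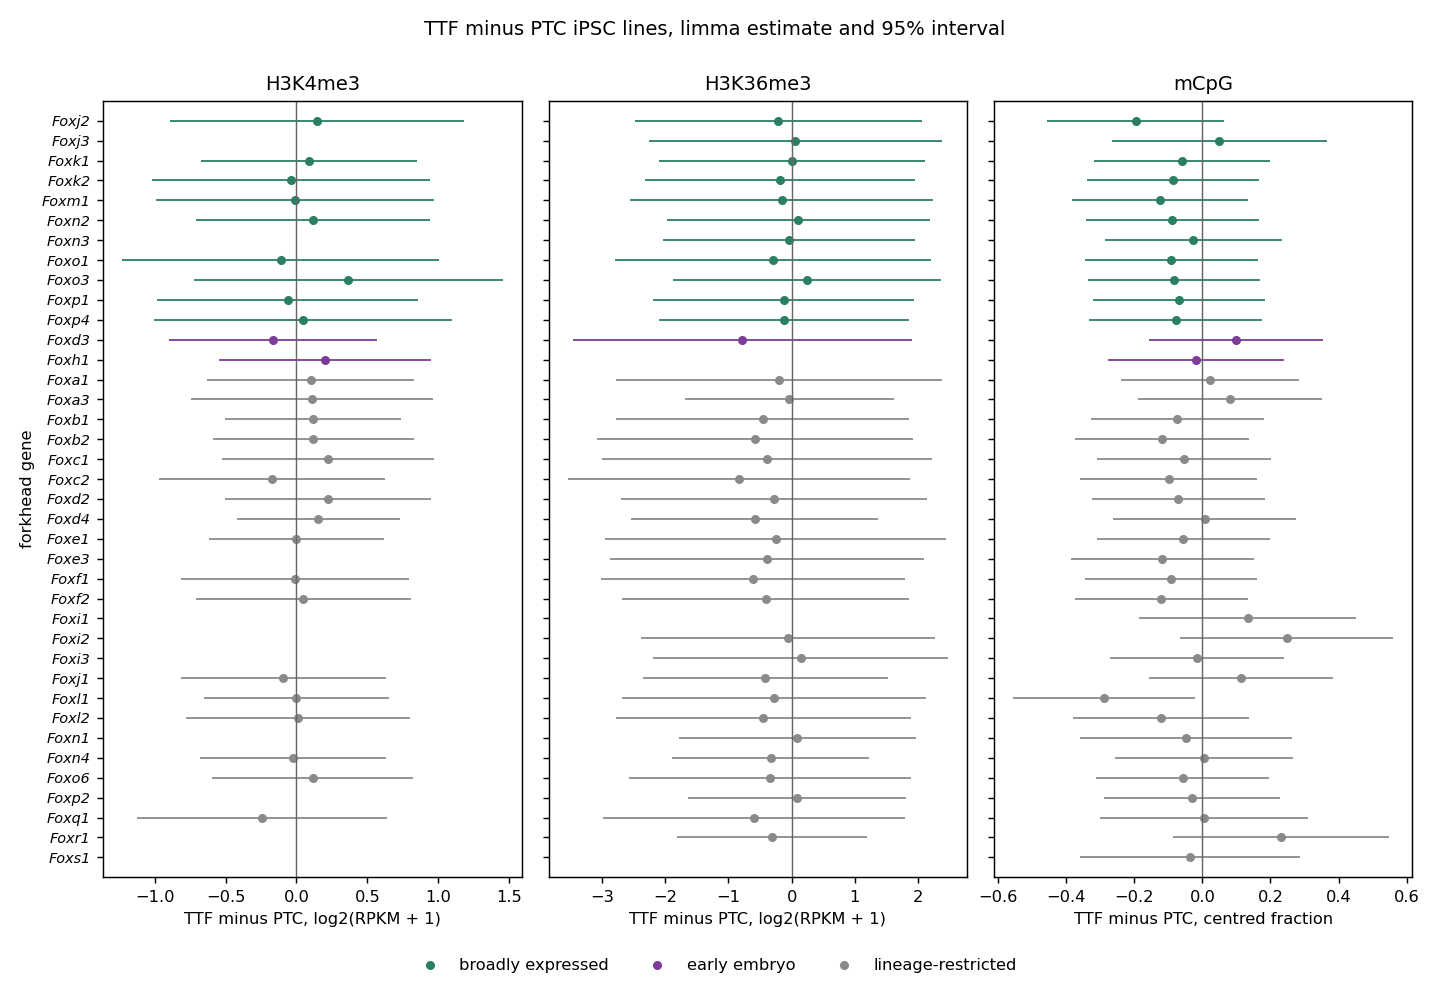
Difference of TTF minus PTC lines (x axis, log2(RPKM + 1) for the histone marks and centred fraction for mCpG) for forkhead genes with a value in all 4 lines (y axis), as the limma estimate with its 95% interval, coloured by class. Every interval includes 0 except that of Foxl1 in mCpG, and the intervals of H3K36me3 are the widest. At members with fractions near 0 the mCpG estimate comes mostly from the subtracted line means.

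Genes that act with forkhead factors showed no call either. Over all genes, 0.481% were called in H3K4me3, 0.112% in H3K36me3 and 0.00395% in mCpG. At such shares, 0 calls in lists this short say little about these genes. H3K4me3 in all 4 lines was present at 31.2% of all genes and 53.3% of protein-coding genes. Of 6 partners and targets of Foxh1 (Smad2, Smad3, Smad4, Nodal, Lefty1 and Lefty2), 5 had H3K4me3 in all 4 lines, with 0 called in each assay. Lefty2, a Nodal antagonist, lacked H3K4me3 in TTF4, and its methylation was 0.141 (PTC11), 0.348 (PTC12), 0.241 (TTF1) and 0.765 (TTF4). Of 8 genes that control FoxO factors, such as Akt1 and Sirt1, 7 had H3K4me3 in all lines and 0 were called. All 6 FoxO targets and all 6 Foxm1 targets on the lists, among them Cdkn1b and Plk1, had H3K4me3 in all 4 lines, with differences from -0.43 (Sod2) to 0.21 (Irs2) and 0 called. Genes without a value in every line were not tested, which left out Lefty2 and Sgk1 in H3K4me3 and 4 of the 6 Foxm1 targets (Ccnb1, Plk1, Aurkb and Cenpf), which lacked H3K36me3 in TTF4. None of the genes tested had an unadjusted p under 0.05 in limma.

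Markers of the labelled cell type were checked. Of 8 pluripotency markers, 7 had H3K4me3 in PTC11, PTC12 and TTF1 and 5 in TTF4, which lacked it at Zfp42 and Dppa5a, and Esrrb had none. H3K36me3 was present in all 4 lines at 4 of the 8, and Pou5f1, Nanog and Zfp42 lacked it in TTF4 alone. Methylation at Zfp42 was 0.0284 (PTC11), 0.209 (PTC12), 0.100 (TTF1) and 0.803 (TTF4), and at Dppa5a 0.0116, 0.312, 0.167 and 0.771. TTF4 was the highest line at these markers, as at Foxd3, and at 4 of the 8 in all, while PTC12 was highest at Pou5f1 and Nanog. The part of these differences in the forkhead values was not tested. Among 6 proximal tubule markers, Slc34a1, Cubn and Slc5a2 had H3K4me3 in no line, and 3 markers had it in PTC12 against 1 in each other line. Of 6 fibroblast markers, H3K4me3 was present at 2 (PTC11), 5 (PTC12), 5 (TTF1) and 4 (TTF4), in lines grown on fibroblast feeders. H3K36me3 had a value at 6 (PTC11), 5 (PTC12), 6 (TTF1) and 4 (TTF4) of the proximal tubule markers. At the fibroblast markers it had one at 6, 6, 6 and 4, so that its presence did not tell the marker lists apart. The part of feeder cells in the forkhead values was not tested.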

How the data were processed

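H3K4me3 and H3K36me3 values are RPKM that the authors computed from MACS2 peaks, subtracted the input from and averaged per gene, at the start for H3K4me3 and over the body for H3K36me3. CpG methylation was deposited as a fraction per gene, from nanopore reads in windows around the start. The submitters' processing notes name Bowtie2 2.1.0, MACS2 2.0.10, SAMtools 1.3.1, bedtools 2.17.0, FastQC 0.11.5, Trim Galore 0.0.4 and minimap2 2.17-r941, on mm10. Neither reads nor coverage are in the tables, so that no counting error could be given.

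TTF and PTC lines were compared with limma 3.58.1 (R 4.3.3, trended variance), on log2(RPKM + 1) for genes with a value in all 4 lines and on fractions after subtraction of each line's mean over all genes, with Benjamini-Hochberg adjustment over all genes tested and a threshold of 0.05. The fit was run on simulated data, where recovery of known changes was required only at a small spread set alike for all genes. Recovery at the spread of these lines is not given here. Tables were joined in Python 3.11.15 with pandas 2.3.3, numpy 2.4.6 and scipy 1.17.1, and plotted with matplotlib 3.10.9. CpGs and sequences were read from GRCm38 (mm10), and transcripts from GENCODE vM21. Named genes are all 39 members, with the pathway and marker genes of fixed lists. The members, classes and lists were chosen with earlier results of these data known. Alternatives were other normalizations, pseudocounts, limits and class assignments, a fit without the variance trend, and leaving out each line. H3K27me3, also deposited as RPKM, entered no comparison. Values of 1 member and 1 pathway gene are not reported here or drawn, and both stay in the counts and medians.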

Additional observations from a re-analysis of the deposited data

Results flagged for a closer look

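H3K27me3, the Polycomb mark of silenced developmental genes, was not part of the comparisons. Both of its PTC libraries are labelled PTC11. The genes with a value numbered 69 in the first and 144 in the second of these, 52 in the TTF1 library and 11 in the TTF4 library. Of the 39 forkhead genes, Foxl1 alone had one, 1.80 RPKM in the second PTC11 library, and it was listed without a value in the other 3 libraries. No control samples for this mark were used here, and the value has no replicate.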

How the results depend on the processing

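Of 67 alternative values, 62 were judged the same as the main value and 5 moved or reversed. A value judged the same can differ, such as 29 in place of 23 members under 0.2 in all lines without TTF4. A moved value can keep its direction, as the mCpG differences of medians below do. When 1 line at a time was left out, the count of called forkhead genes in mCpG moved only without TTF1, through Foxl1. That fit has 1 TTF line, and the Foxl1 difference in it includes the subtracted line means. With a limit of 0.1 in place of 0.2, 12 members and not 23 were under it in all 4 lines, and leaving out 1 line gave 23 to 29. The broad minus restricted difference in H3K36me3 was 0.0145 without PTC12, and leaving out 1 line gave -0.25 to 0.0145. That in mCpG was -0.0652 with Foxd3 and Foxh1 classed as broadly expressed, and leaving out 1 line gave -0.0981 to -0.0746, the last without TTF4. The cause of these shifts was not tested. Leaving out Foxj3 and Foxn3, chosen after seeing the data, gave 0.48 in H3K4me3, -0.14 in H3K36me3 and -0.0957 in mCpG. Over all genes, limma called 66 in H3K4me3, with 102 at a pseudocount of 0.1, 78 to 138 when 1 line was left out and 0 in the other fits. It called 19 in H3K36me3, with 44, 1 to 53 and 0 in the same order, and 2 in mCpG, with 0 without subtraction or after quantile normalization, 1 without the variance trend, 9 on chromosomes 1 to 19 and 0 to 1003 when 1 line was left out. No paired analysis was possible because the donor animal of each line is not given. With 2 lines per origin and no depth, a difference that was not called is not shown to be absent.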
